A study of Mus musculus with 12 samples.

Results

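Small nucleolar RNAs (snoRNAs) guide the chemical modification of ribosomal RNA, and in mammals most are cut from the introns of other transcripts. A group of snoRNA host genes makes spliced transcripts with no long reading frame: the introns carry the snoRNAs, and the spliced remainder is often short-lived. For several of these hosts, Gas5 and Snhg1 among them, the spliced RNA is known to be cleared by nonsense-mediated decay, which depends on translation, and many begin with a run of pyrimidines at the start of transcription. The hosts described here were 8 noncoding ones, Gas5, Snhg1, Snhg3, Snhg5, Snhg6, Snhg8, Snhg12 and 1110038B12Rik (also named Snhg32). They were selected by name, with earlier results of these same arrays known, so every value below is a description and no independent evidence of a direction. A probe belonged to a member when its RefSeq accession led to the member's symbol. This found 6 members with 1 probe each, out of 15441 genes tested. No probe was named for Gas5 or Snhg8, which were not analysed here.

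RNA was measured in mouse embryonic fibroblasts, cells of embryonic connective tissue, on 12 Agilent single-colour arrays with 3 for each of 4 groups. GADD34ΔC/ΔC cells (written ΔC) treated with poly(I:C), untreated ΔC cells, wild-type cells treated with poly(I:C) and untreated wild-type cells were compared. GADD34, encoded by Ppp1r15a, recruits protein phosphatase 1 to the translation factor eIF2α, and the name ΔC stands for a shortened product. High molecular weight poly(I:C), which cells sense as double-stranded viral RNA, was lipofected at 2.5 µg/ml for 6 h, and RNA was taken from the supernatant of an NP40 lysate. The labels do not say where the deletion lies or how many embryos or lines each genotype stands for, and no group given the lipid reagent alone was analysed here. The allele was present before treatment, so no acute loss of GADD34 was measured.

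Levels are log2 values of the processed spot intensity relative to the 75th percentile of the same array. Ppp1r15a was at -4.12, -8.14 and -7.20 in treated ΔC cells and at -7.22, -8.30 and -5.75 in untreated ΔC cells, against 5.79, 5.83 and 5.81 in treated and 2.65, 2.62 and 3.36 in untreated wild-type cells. Its 1 probe was well above background on 7 of the 12 arrays, so the lowest of these values lie near background. The position of the probe is unknown, so a lost transcript and a probe inside the deleted part cannot be told apart. Of 11 fibroblast markers, 8 were well above background on all 12 arrays and Lum was on none. Of 4 endothelial markers, Pecam1 and Kdr were well above background on all 12 arrays, and Cdh5 and Tek were on none. Of 4 epithelial markers, 1 was on all 12. The 4 leukocyte markers measured, out of 5 listed, were well above background on all 12 arrays. Their mean levels were 1.68 for Csf1r and 0.93 for Cd14, against -4.83 for Ptprc and -4.49 for Adgre1. The summed leukocyte level given below was thus carried mainly by Csf1r and Cd14. The 4 arrays numbered 3 stood apart from the other 8 on the third principal component (8.52% of the variance), at -45.6 to -24.3 against 2.06 to 31.0, so values without them are given where they matter.

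The sequence around the annotated start was read for the 5 measured members that the RefSeq promoter table (GRCm38.p6) lists; Snhg6 was looked for and is named only. These windows are shown because hosts of this class are known for a start rich in pyrimidines. Each holds 80 bases, 40 before and 40 from the annotated start, on the transcribed strand. Capitals mark the longest run of C and T that reaches into the stretch between 10 bases before and 25 bases after the start.
Snhg1, chr19:8723447-8723526, plus strand: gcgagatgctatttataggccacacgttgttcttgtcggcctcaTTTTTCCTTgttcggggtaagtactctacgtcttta
Snhg12, chr4:132308638-132308717, plus strand: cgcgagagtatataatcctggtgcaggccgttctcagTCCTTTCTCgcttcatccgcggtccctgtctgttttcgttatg
Snhg5, chr9:88522858-88522937, minus strand: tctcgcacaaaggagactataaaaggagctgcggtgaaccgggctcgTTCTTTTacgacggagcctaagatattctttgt
1110038B12Rik, chr17:34952432-34952511, minus strand: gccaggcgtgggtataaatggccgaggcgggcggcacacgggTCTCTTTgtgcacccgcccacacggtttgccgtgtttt
Snhg3, chr4:132353647-132353726, minus strand: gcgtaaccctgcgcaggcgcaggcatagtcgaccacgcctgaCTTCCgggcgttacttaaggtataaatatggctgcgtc
The run was 9 bases long in Snhg1 and Snhg12, 7 in Snhg5 and 1110038B12Rik and 5 in Snhg3. Counted from the annotated start, it began at base -3 in Snhg12, 3 in 1110038B12Rik and Snhg3, 5 in Snhg1 and 8 in Snhg5. Only the run of Snhg12 thus crossed the annotated start, and the others lay after it. A run of at least 6 was present in 4 of these 5 windows and in 39.1% of 27025 promoters of the table. The letters TATAAA were found on either strand of the 300 bases listed per gene in 4 of the 5 and in 14.16% of all. On the transcribed strand they began at base -23 in Snhg5, at -28 in 1110038B12Rik and, after the start, at 23 in Snhg3. In Snhg1 they were on the opposite strand only. TGATGNAA (a CCAAT-enhancer and ATF composite element) and TGANTCA (an AP-1 element) were found in 0 of the 5, and in 4.06 and 7.93% of all promoters. These counts describe letters in short windows, and the pyrimidine run was compared with no test.

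Wild-type cells were compared first, with and without transfected double-stranded RNA. In wild-type cells 4 of the 6 hosts were higher after poly(I:C), by 1.78-fold to 2.61-fold, and Snhg3 stayed close to its untreated level. Over all genes, 5.24% were called higher in this comparison (limma, Benjamini-Hochberg over all 15441 genes, adjusted p under 0.05). The median log2 difference was 0.91 over the 6 hosts and -0.14 over all genes. In bulk samples like these, more cells carrying a transcript and more of it per cell cannot be told apart.

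Snhg1, known as the host of Snord22 and other box C/D snoRNAs, read 4.26, 3.98 and 3.60 in treated wild-type cells, against 2.55, 2.22 and 2.94 in untreated wild-type cells. The lowest treated array lay above the highest untreated one, as for 12% of all genes. Its log2 fold change was 1.37 ± 0.22 (SE, n = 3 per group), a 2.59-fold rise (limma adjusted p = 0.00528).

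Snhg12, which carries mainly box H/ACA snoRNAs, guides of pseudouridine formation, read 5.08, 5.01 and 4.68 in treated wild-type cells and 3.37, 3.24 and 4.01 in untreated wild-type cells. The groups did not overlap, and untreated array 3 was the high one of its group. The rise was 2.61-fold (log2 1.39 ± 0.21, limma adjusted p = 0.00299).

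Snhg5, known as the host of the U50 snoRNAs, read 1.68, 1.70 and 1.53 in treated wild-type cells, against 0.47, 0.40 and 1.10 in untreated ones. The groups were again separate, with untreated array 3 nearest to the treated ones. It rose 1.98-fold (log2 0.98 ± 0.19, limma adjusted p = 0.0146).

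1110038B12Rik, host of Snord48 and Snord52, read 6.96, 6.95 and 6.91 in treated wild-type cells and 6.08, 5.88 and 6.38 in untreated wild-type cells. The treated arrays had an SD of 0.03 and lay above every untreated one. The rise was 1.78-fold (log2 0.83 ± 0.14, limma adjusted p = 0.00603).

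Snhg6, host of Snord87, read 5.92, 5.80 and 5.78 in treated wild-type cells, against 5.20, 5.17 and 5.79 in untreated wild-type cells. Untreated array 3 lay inside the treated range, and the difference of 0.45 ± 0.16 did not pass (limma adjusted p = 0.118). Without wild-type untreated 3 it passed (adjusted p = 0.0085), as it did without all 4 arrays numbered 3 (0.68, adjusted p = 0.00305). Those settings called 1096 and 2000 of all genes higher, against 809 in the main fit.

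Snhg3, host of the U17 snoRNAs, which act in ribosomal RNA processing, read 4.23, 4.03 and 4.29 in treated wild-type cells and 4.21, 4.04 and 4.43 in untreated wild-type cells. The groups covered nearly the same range, and the difference was -0.04 ± 0.17 with a 95% interval of -0.43 to 0.34 (limma adjusted p = 0.899). Snhg3 and Snhg12 lie on chromosome 4 with 2 genes listed between them, Trnau1ap and Rcc1, so the flat and one of the 2 largest responses came from neighbouring hosts.

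**Figure D1:**
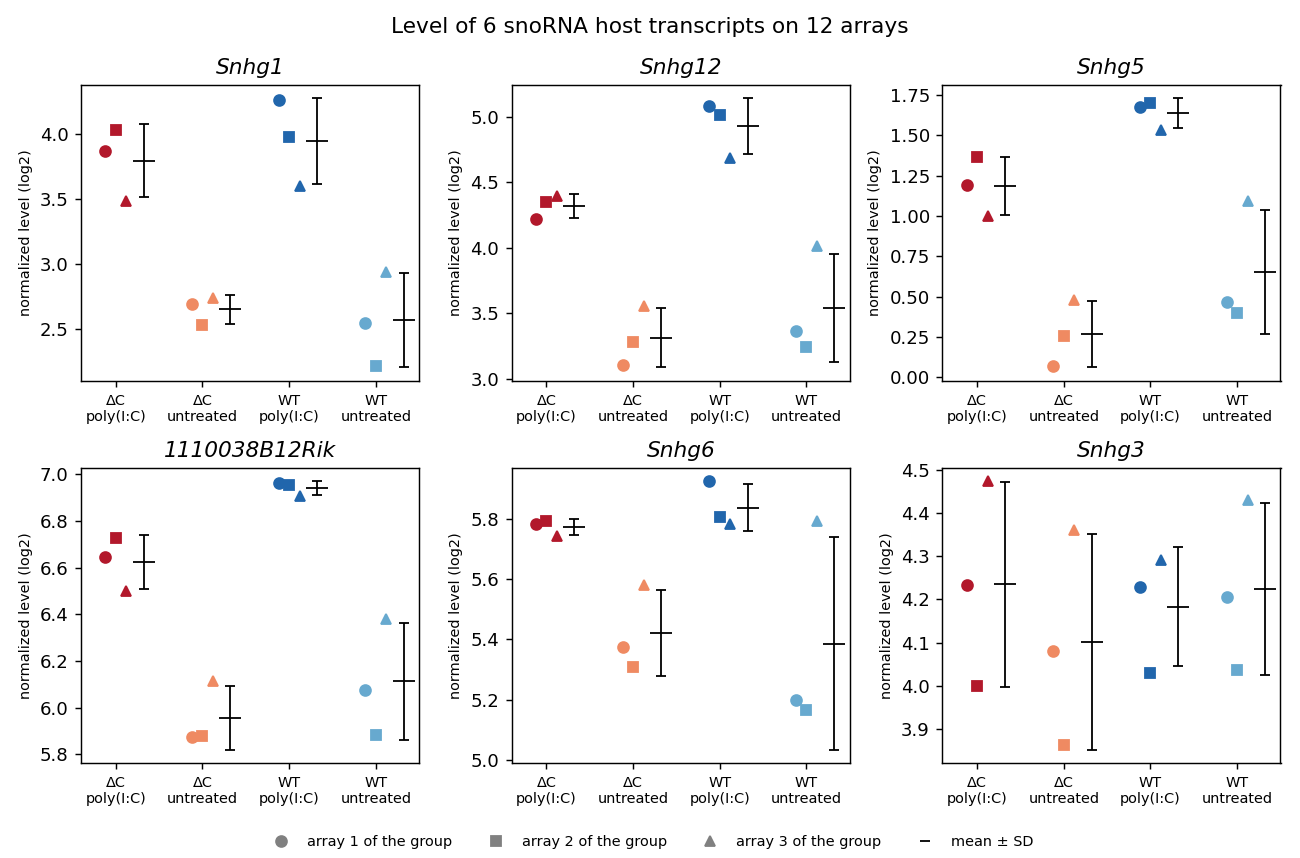
Normalized log2 level (vertical axis, its own range in each panel) of the 6 measured hosts on the 12 arrays. From left to right each panel shows ΔC poly(I:C), ΔC untreated, WT (wild-type) poly(I:C) and WT untreated; circles, squares and triangles are arrays 1, 2 and 3, and the bars are mean ± SD of 3 arrays. Treated arrays lie above untreated arrays of the same genotype for Snhg1, Snhg12, Snhg5 and 1110038B12Rik, while the 4 groups of Snhg3 overlap.

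How firmly these rises stood depended on the array. Leaving out any 1 of the 12 arrays left Snhg1, Snhg12 and 1110038B12Rik past the threshold. Snhg5 was not past it without wild-type poly(I:C) 1 (adjusted p = 0.0721) or 2 (0.0729) or wild-type untreated 1 (0.0706) or 2 (0.0625). Within the arrays of 1 scan day (2 treated, 1 untreated) the log2 differences were 1.90 for Snhg1, 1.80 for Snhg12, 1.29 for Snhg5, 1.08 for 1110038B12Rik, 0.70 for Snhg6 and 0.09 for Snhg3. Within slide 2, which held 1 array of each wild-type group, they were 1.76, 1.77, 1.30, 1.07, 0.64 and -0.01 in the same order. With slide as a block none of the 4 passed (adjusted p = 0.079 for Snhg1 and Snhg12, 0.197 for Snhg5 and 0.131 for 1110038B12Rik), and with scan day as a block Snhg5 did not (0.0673). These blocks called 222 and 480 of all genes higher, against 809 in the main fit. The summed level of the 4 leukocyte markers was 2.44 to 2.79 in treated wild-type cells and 2.94 to 3.38 in untreated ones, and its part in these results was not tested.

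In ΔC cells the same 4 hosts were higher after poly(I:C), by 1.59-fold to 2.21-fold, against 1.82% of all genes called higher in this comparison. The groups of Snhg6 did not overlap either, which held for 8.78% of all genes in this direction. The median log2 difference was 0.79 over the 6 hosts and -0.05 over all genes. With the replicate number as a block, which the 3 independent experiments of the design provide, none of the 4 passed (adjusted p = 0.0561 for Snhg1, 0.0522 for Snhg12, 0.0652 for Snhg5 and 0.0587 for 1110038B12Rik). Over all genes that block called 309 higher, against 281 without it.

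Snhg1 read 3.87, 4.04 and 3.48 in treated ΔC cells, against 2.69, 2.53 and 2.75 in untreated ΔC cells, a difference of 1.14 ± 0.22 on the log2 scale (2.21-fold, limma adjusted p = 0.0304). Snhg12 read 4.22, 4.35 and 4.40 in treated and 3.11, 3.28 and 3.56 in untreated ΔC cells (log2 1.01 ± 0.21, limma adjusted p = 0.0375). Both were separate between the groups, by a gap wider than the spread inside either group.

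Snhg5 read 1.19, 1.36 and 1.00 in treated ΔC cells, against 0.07, 0.26 and 0.48 in untreated ΔC cells (log2 0.92 ± 0.19, limma adjusted p = 0.0417). For 1110038B12Rik the treated ΔC arrays read 6.64, 6.73 and 6.50 and the untreated ones 5.87, 5.88 and 6.11 (log2 0.67 ± 0.14, limma adjusted p = 0.0391). In both, the treated array 3 was the lowest treated one and the untreated array 3 the highest untreated one.

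Snhg6 read 5.78, 5.79 and 5.74 in treated and 5.37, 5.31 and 5.58 in untreated ΔC cells. The groups did not overlap, and the difference of 0.35 ± 0.16 did not pass (limma adjusted p = 0.473, and 0.0274 without the 4 arrays numbered 3). Snhg3 read 4.23, 4.00 and 4.47 in treated ΔC cells, against 4.08, 3.86 and 4.36 in untreated ΔC cells. Its groups overlapped, with a difference of 0.13 ± 0.17 and a 95% interval of -0.25 to 0.52 (limma adjusted p = 0.829), although array for array it was higher in 3 of 3 numbered pairs, by 0.11 to 0.15.

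The ΔC calls lay near the threshold. Snhg1 was not past it without ΔC poly(I:C) 1 (adjusted p = 0.139) or 2 (0.138), ΔC untreated 1 (0.109), 2 (0.143) or 3 (0.0556), wild-type poly(I:C) 2 (0.0574) or wild-type untreated 1 (0.0561). Snhg12 was not past it without ΔC poly(I:C) 1 (0.114), 2 (0.139) or 3 (0.0883), ΔC untreated 1 (0.175) or 2 (0.152), wild-type poly(I:C) 1 (0.0578) or 2 (0.0669) or wild-type untreated 1 (0.0574). Snhg5 failed without ΔC poly(I:C) 1 (0.162) or 2 (0.18), ΔC untreated 1 (0.193) or 2 (0.161), wild-type poly(I:C) 1 (0.0738), 2 (0.0747) or 3 (0.0508) or wild-type untreated 1 (0.0588). 1110038B12Rik failed without ΔC poly(I:C) 1 (0.165) or 2 (0.17), ΔC untreated 1 (0.179) or 2 (0.187), wild-type poly(I:C) 1 (0.0729) or 2 (0.0757) or wild-type untreated 1 (0.0693). Without all 4 arrays numbered 3, by contrast, the 4 differences were 1.34, 1.09, 1.11 and 0.81 for Snhg1, Snhg12, Snhg5 and 1110038B12Rik (adjusted p = 0.00684, 0.00325, 0.00318 and 0.00689). More calls were made over all genes too in that setting, with 1005 higher and 1021 lower, against 281 and 3 in the main fit. Over 26 alternatives, which leave out the authors' table with its mismatched column, the difference was positive for all 4, within 0.81 to 1.34 for Snhg1, 0.81 to 1.13 for Snhg12, 0.78 to 1.11 for Snhg5 and 0.53 to 0.81 for 1110038B12Rik. Within scan day 1 (1 treated and 2 untreated arrays) the differences were 1.26, 1.03, 1.03 and 0.77, with 0.44 for Snhg6 and 0.26 for Snhg3, and within slide 1 (1 array each) 1.18, 1.11, 1.12, 0.77, 0.41 and 0.15 in the same order. None of the 4 passed with median scaling (0.183 to 0.511) or with slide (0.555 to 0.636) or scan day (0.309 to 0.384) as a block. All genes called higher in these settings numbered 207, 84 and 144, against 281 in the main fit. The summed leukocyte marker level was 1.86 to 1.97 in treated and 1.56 to 2.22 in untreated ΔC cells.

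The numbered experiments differed in the size of the response, and they did so for most hosts at once. In wild-type cells Snhg1 was higher by 1.71 and 1.76 in the pairs numbered 1 and 2 and by 0.66 in the pair numbered 3. Snhg12 was higher by 1.72, 1.77 and 0.67 in the same order, Snhg5 by 1.21, 1.30 and 0.44, and 1110038B12Rik by 0.89, 1.07 and 0.53. Snhg6 differed by 0.72 and 0.64 in the first 2 pairs and by -0.01 in the pair numbered 3. In ΔC cells the pair numbered 3 was also the smallest for each of the 6 hosts, with 0.74 against 1.18 and 1.51 for Snhg1, and 0.84 against 1.11 and 1.06 for Snhg12. Snhg5 had 0.52 against 1.12 and 1.11 there, 1110038B12Rik 0.39 against 0.77 and 0.85, and Snhg6 0.16 against 0.41 and 0.48. Untreated arrays numbered 3 were the highest untreated arrays of both genotypes for each of the 6 hosts.

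**Figure D2:**
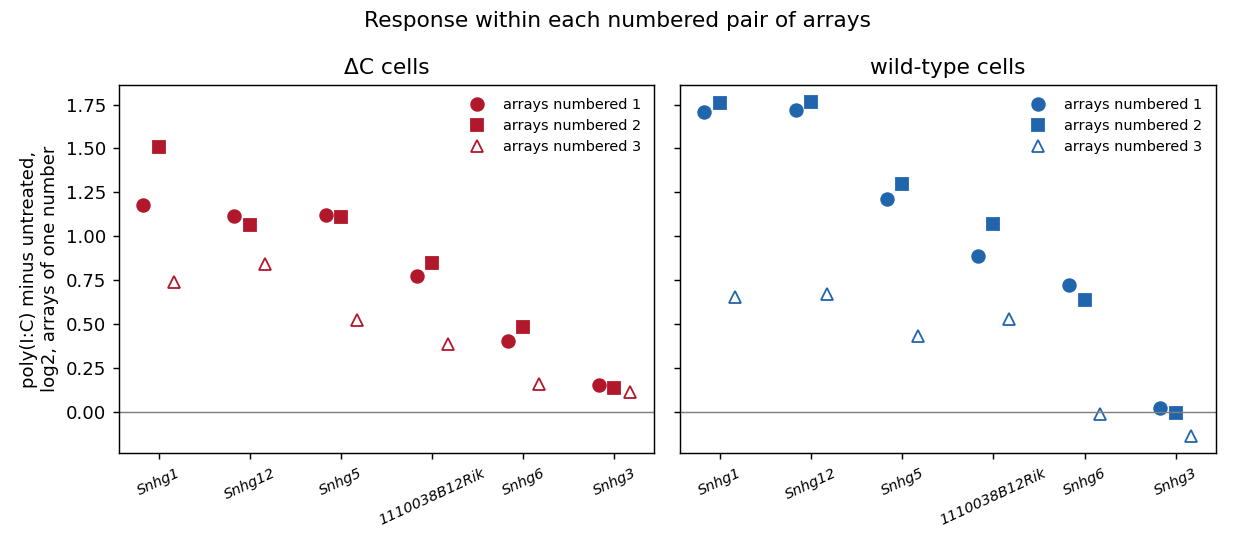
Difference in log2 level between the poly(I:C) and the untreated array of the same number (vertical axis) for each of the 6 hosts, in ΔC cells (left) and wild-type cells (right). Filled circles and squares are arrays numbered 1 and 2 and open triangles arrays numbered 3; for Snhg1 the triangles lie at 0.74 in ΔC cells and 0.66 in wild-type cells, below the other 2 symbols.

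Between the genotypes no host passed the test in untreated cells, where 21.1% of all genes did in either direction. Snhg5 was lowest relative to wild type, at 0.27 ± 0.21 in untreated ΔC cells and 0.65 ± 0.38 in untreated wild-type cells (SD, n = 3 each; log2 difference -0.39 ± 0.19, limma adjusted p = 0.184). Snhg12 averaged 3.31 ± 0.23 in untreated ΔC cells, against 3.54 ± 0.41 in untreated wild-type cells, and 1110038B12Rik 5.96 ± 0.14 against 6.11 ± 0.25. Snhg1 (2.66 ± 0.11 against 2.57 ± 0.36), Snhg6 (5.42 ± 0.14 against 5.39 ± 0.35) and Snhg3 (4.10 ± 0.25 against 4.22 ± 0.20) differed by less than the spread of the arrays. The groups of all 6 hosts overlapped, while 37.2% of all genes had groups that did not. None of the 6 had an unadjusted p under 0.05. The widest of the 95% intervals, that of Snhg1, ran from -0.42 to 0.58. In the 3 numbered pairs ΔC minus wild type was negative each time for Snhg5 (-0.40, -0.15 and -0.62), Snhg3 (-0.12, -0.17 and -0.07) and 1110038B12Rik (-0.20, -0.0034 and -0.27), and none of the 6 passed with the replicate block.

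With poly(I:C), 3 hosts were lower in ΔC than in wild-type cells on every array, and none passed the test across all genes, where 20.9% of genes did in either direction. Snhg12 averaged 4.32 ± 0.09 in treated ΔC cells and 4.93 ± 0.21 in treated wild-type cells (SD, n = 3 each), a log2 difference of -0.60 ± 0.21 (limma adjusted p = 0.0639). Snhg5 averaged 1.19 ± 0.18 in treated ΔC cells, against 1.64 ± 0.09 in treated wild-type cells (log2 -0.45 ± 0.19, limma adjusted p = 0.126). 1110038B12Rik averaged 6.62 ± 0.11 and 6.94 ± 0.03 in the same groups (log2 -0.32 ± 0.14, limma adjusted p = 0.134). The groups of these 3 did not overlap, as for 18.9% of all genes in this direction, and 3 of the 6 had an unadjusted p under 0.05. Snhg1 (3.80 ± 0.28 in ΔC, 3.95 ± 0.33 in wild type), Snhg6 (5.77 ± 0.03 and 5.84 ± 0.08) and Snhg3 (4.24 ± 0.24 and 4.18 ± 0.14) overlapped between the genotypes.

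The result for Snhg12 turned on single arrays: it passed without wild-type poly(I:C) 3 (adjusted p = 0.0463) or wild-type untreated 3 (0.0197), with only the groups compared (0.0397), with a trended and robust variance (0.0394) and without the 4 arrays numbered 3 (-0.76, adjusted p = 0.00304). Snhg5 passed without wild-type untreated 3 (0.0429) and without the 4 arrays numbered 3 (0.029). Over all genes the main fit called 1396 lower. The count was 1507 without wild-type poly(I:C) 3, 1541 without wild-type untreated 3 and 2610 without the 4 arrays numbered 3. It was 1087 with only the groups compared and 1614 with a trended and robust variance. Within scan day 1 (1 ΔC and 2 wild-type arrays) the differences were -0.83 for Snhg12, -0.50 for Snhg5, -0.31 for 1110038B12Rik, -0.25 for Snhg1, -0.08 for Snhg6 and 0.10 for Snhg3. The summed fibroblast marker level was 8.27 to 9.18 in treated ΔC and 9.13 to 9.36 in treated wild-type cells, and the leukocyte markers were at 1.86 to 1.97 and 2.44 to 2.79 there. The part of these markers in the genotype results was not tested.

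**Figure D3:**
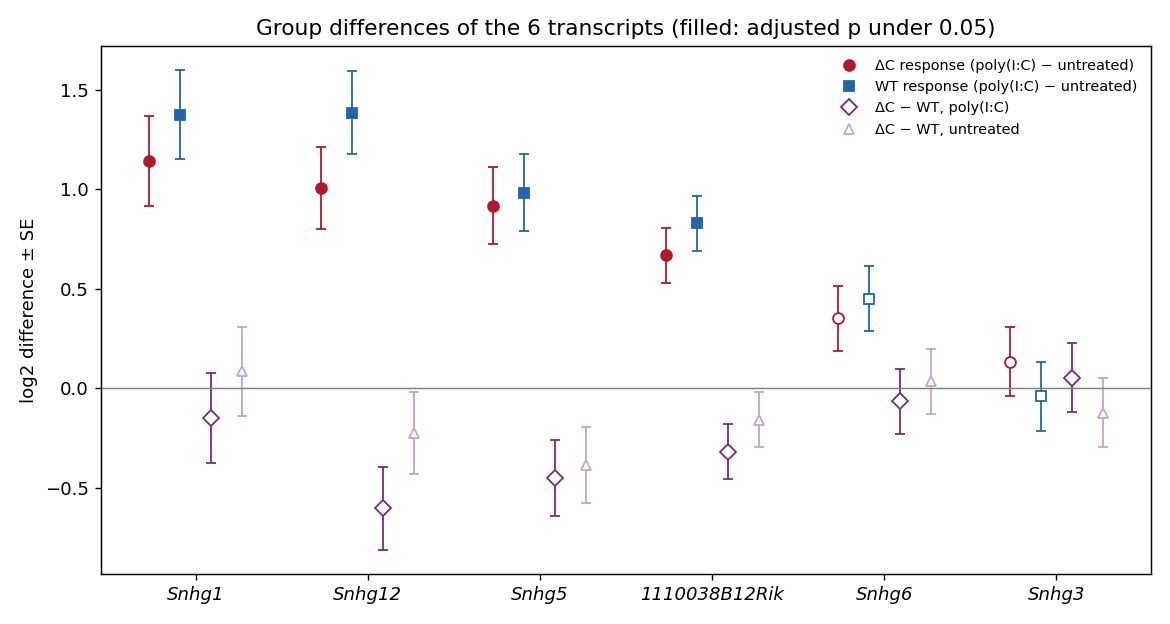
Log2 difference ± SE (vertical axis) of the 6 hosts in 4 comparisons, each on its own symbol: circles, ΔC response; squares, WT (wild-type) response; diamonds, ΔC minus wild type with poly(I:C); triangles, ΔC minus wild type untreated. Filled symbols have a limma adjusted p under 0.05: 4 hosts are filled in each response and none between genotypes, where Snhg12 is lowest at -0.60.

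Whether the response itself differed between genotypes was tested as an interaction, and none of the 6 hosts passed, as against 0.0194% of all genes. The ΔC response minus the wild-type response was -0.38 ± 0.29 for Snhg12, -0.23 ± 0.32 for Snhg1, -0.16 ± 0.20 for 1110038B12Rik, -0.10 ± 0.23 for Snhg6, -0.07 ± 0.27 for Snhg5 and 0.17 ± 0.25 for Snhg3, with limma adjusted p from 0.987 to 0.998. None had an unadjusted p under 0.05. The 95% interval for Snhg12 ran from -1.03 to 0.27. Single arrays moved these values: Snhg12 was at -0.61 without wild-type untreated 3 and at -0.23 without wild-type untreated 2, and Snhg1 at -0.42 and -0.0568. Over the arrays left out 1 at a time, 1110038B12Rik ran from -0.29 to -0.0461 and Snhg3 from 0.0547 to 0.30. Without all 4 arrays numbered 3 the difference was -0.65 ± 0.15 for Snhg12 (limma adjusted p = 0.101) and -0.39 ± 0.23 for Snhg1 (0.44). With slide as a block it was -0.78 for Snhg12 and -0.64 for Snhg1, and none of the 6 passed under either setting.

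Ordered by group mean, 5 of the 6 hosts were highest in treated wild-type and next in treated ΔC cells. For Snhg12 and 1110038B12Rik each of the first 2 steps of that order was free of overlap, and for both the untreated genotypes overlapped. For Snhg5 the treated genotypes did not overlap, while treated ΔC and untreated wild-type cells did, through untreated wild-type array 3 at 1.10 and treated ΔC array 3 at 1.00. For Snhg1 and Snhg6 the treated genotypes overlapped and the untreated genotypes overlapped, with no overlap between the mean-ordered neighbours treated ΔC and untreated ΔC. All neighbours overlapped for Snhg3.

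Across the 12 arrays, the levels of Snhg1, Snhg5, Snhg6, Snhg12 and 1110038B12Rik moved together, with Pearson r of 0.87 to 0.99 between pairs, and those of Snhg3 with the others at 0.13 to 0.42. These arrays share treatment, genotype and experiment, so the values are descriptive. The 5 tested genes most like the mean centred profile of the 6 hosts were Jun, a subunit of the AP-1 transcription factor (r = 0.988), Ddx31, a helicase gene (0.981), Snhg17 (0.978), Rnd1, a small GTPase gene (0.977), and Snhg16 (0.976), all over 12 arrays. Snhg16 and Snhg17, the next closest by name, are themselves noncoding snoRNA hosts. Jun averaged 5.63 ± 0.24 in treated and 3.78 ± 0.44 in untreated ΔC cells, against 6.13 ± 0.22 in treated and 4.01 ± 0.94 in untreated wild-type cells (SD, n = 3 each). Its untreated wild-type array 3 read 5.06, above 3.74 and 3.23 of the other two.

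Of 15 further noncoding hosts listed, 6 were measured, and Snhg16 and Snhg17 were the ones called in the responses, where 1.82% of all genes were called higher in ΔC and 5.24% in wild-type cells. Snhg17 rose by 1.27 ± 0.22 in ΔC cells (limma adjusted p = 0.0135) and by 1.65 ± 0.22 in wild-type cells (0.00129). Snhg16 rose by 1.22 ± 0.18 in ΔC cells (limma adjusted p = 0.00601) and by 1.60 ± 0.18 in wild-type cells (0.000492). The ΔC call on Snhg17 was lost without ΔC poly(I:C) 1 (0.0628) or 2 (0.0688) or ΔC untreated 1 (0.0686) or 2 (0.051). Snhg16 read 5.12, 5.02 and 4.88 in treated and 3.77, 3.72 and 3.88 in untreated ΔC cells, against 5.66, 5.53 and 5.13 in treated and 3.74, 3.59 and 4.19 in untreated wild-type cells. With the mean of its 2 probes the rise of Snhg16 was 0.57 in ΔC cells, where the call was lost (adjusted p = 0.191), and 0.83 in wild-type cells (0.0177). The median log2 difference over these 6 was 0.34 in ΔC and -0.0025 in wild-type cells, and 4 of the 6 passed in neither response. Between treated genotypes Snhg7 (0.76 ± 0.13, limma adjusted p = 0.00287) and Snhg10 (0.71 ± 0.21, 0.0354) were higher in ΔC cells, against 11.9% of all genes called higher. The call on Snhg10 was lost without any 1 of 7 arrays (0.0504 to 0.123). In untreated cells 0 were called, with 1 unadjusted p under 0.05, and the largest differences were those of Snhg18 (3.24 ± 1.34, adjusted p = 0.114, and 0.0174 with the replicate block) and Snhg10 (0.36 ± 0.21, 0.247). Without ΔC untreated 3, which read 1.39 for Snhg18 against -2.15 and -3.25 on the other ΔC untreated arrays, these differences were 1.88 and 0.18, and that of Snhg10 was 0.22 without wild-type untreated 2. The 1 probe of Snhg18 read low in untreated wild-type cells, at -4.25, -5.26 and -4.23, and was well above background on 11 of the 12 arrays.

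The protein-coding snoRNA hosts, among them ribosomal protein and translation factor genes, were called about as often as all genes in wild-type cells. Of 43 measured, 0 were called in ΔC cells, against 1.82% of all genes called higher, where the largest differences were those of Taf1d (1.29 ± 0.47, limma adjusted p = 0.347), which encodes a subunit of an RNA polymerase I factor, and Nop56 (0.42 ± 0.21, 0.505), with 2 unadjusted p under 0.05. In wild-type cells 2 rose, against 5.24% of all genes, Taf1d (1.99 ± 0.47, limma adjusted p = 0.0337) and the helicase gene Eif4a2 (0.55 ± 0.11, 0.0124). The count in wild-type cells was 6 without wild-type untreated 3. That setting called 1096 of all genes higher and 1136 lower, against 809 and 237 in the main fit. The list's median was 0.09 in ΔC and -0.10 in wild-type cells. The wild-type call on Taf1d was lost without any 1 of 5 arrays (0.0525 to 0.149) and that on Eif4a2 without wild-type poly(I:C) 1 (0.0753) or wild-type untreated 1 (0.0566) or 2 (0.0541). Between genotypes 15 of the 43 were lower in untreated ΔC cells, led by Hspa9 (-0.87 ± 0.11), a mitochondrial chaperone gene, and Rpl10 (-0.60 ± 0.12), against 10.2% of all genes called lower. This count depended on the scaling: 1 of the 43 was called lower with quantile normalization, with normexp and with median scaling, and the list's median was 0.001 with quantile normalization, against -0.31. Over all genes 1199, 1241 and 696 were called lower with these scalings, against 1577 in the main fit. Rpl10 was at -0.24 with quantile normalization (adjusted p = 0.0699) and at -0.17 with normexp (0.208). The count was 6 without ΔC untreated 1, 2 without ΔC untreated 2, 9 without ΔC untreated 3, 4 without wild-type untreated 1 and 5 without wild-type untreated 3. The summed leukocyte marker level was 1.56 to 2.22 in untreated ΔC and 2.94 to 3.38 in untreated wild-type cells, and the fibroblast markers were at 8.20 to 9.19 and 9.28 to 9.47 there; their part was not tested. With poly(I:C) 2 were lower in ΔC cells, Hspa9 (-0.82 ± 0.11) and Eif4a1 (-0.35 ± 0.11), against 9.04% of all genes, and the call on Eif4a1 was lost without any 1 of 7 arrays (0.0548 to 0.141), with quantile normalization (-0.20, 0.2) and with normexp (-0.14, 0.327). Leaving out wild-type poly(I:C) 3 gave 5, and leaving out all 4 arrays numbered 3 gave 8. Over all genes these settings gave 1507 and 2610 called lower, against 1396 in the main fit.

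The decay machinery known to clear such hosts was measured through 23 of 24 listed genes. In ΔC cells 0 were called with 1 unadjusted p under 0.05, and the largest differences were those of Dcp2 (0.40 ± 0.29, limma adjusted p = 0.657), the decapping enzyme gene, and Upf1 (0.32 ± 0.14, 0.45), the central helicase of the pathway. In wild-type cells 2 rose, against 5.24% of all genes, among them Dcp2 (1.91 ± 0.29, limma adjusted p = 0.00308), and 4 did without wild-type poly(I:C) 3 or with the replicate block. Over all genes 1193 and 942 were called higher in those settings, against 809 in the main fit. Without ΔC poly(I:C) 1 the ΔC difference of Dcp2 was 0.21. Between treated genotypes 4 of 23 were lower in ΔC cells (2 without wild-type poly(I:C) 1 or 2), against 9.04% of all genes called lower, led by the helicase gene Dhx34 (-2.44 ± 0.25, adjusted p = 0.000167) and Dcp2 (-1.54 ± 0.29, 0.00454). Without wild-type poly(I:C) 1 or 2, 696 of all genes were called lower each time, against 1396 in the main fit. In untreated cells Dhx34 (-2.36 ± 0.25) and Smg9 (-0.38 ± 0.12, adjusted p = 0.0486) were lower and Magohb (0.40 ± 0.13, 0.0471) higher in ΔC cells, where 10.2% of all genes were called lower and 10.9% higher. The call on Smg9 was lost with the replicate block (0.0524), and those on Smg9 and Magohb were each lost without any 1 of 10 arrays (0.0543 to 0.157 for Smg9 and 0.0547 to 0.166 for Magohb).

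Of 8 protein-coding transcripts known as decay targets, 1 rose in ΔC cells, the stress factor gene Atf3 (4.29 ± 0.45, limma adjusted p = 0.000692), and 3 in wild-type cells, led by Atf3 (5.61 ± 0.45) and by Gadd45a (1.85 ± 0.28, adjusted p = 0.00352), against 1.82% of all genes called higher in ΔC and 5.24% in wild-type cells. The ΔC count was 3 without ΔC untreated 3 and 2 without wild-type poly(I:C) 3 or wild-type untreated 3, and the wild-type count was 5 without either of those wild-type arrays. Over all genes these settings called 308, 345 and 292 higher in ΔC cells and 1193 and 1096 in wild-type cells, in the same order. Without all 4 arrays numbered 3, 6 were called higher in each genotype, where 1005 of all genes were in ΔC and 2000 in wild-type cells. The main fit called 281 and 809 of all genes higher. The median of the 8 targets was 0.87 in ΔC and 0.98 in wild-type cells, against 0.79 and 0.91 for the 6 hosts and -0.05 and -0.14 for all genes. Ddit3, the gene for CHOP, was lower in ΔC cells, by -1.08 ± 0.24 untreated and -1.18 ± 0.24 with poly(I:C). Of 17 proteins of snoRNA particles, 0 were called in either response, with 2 unadjusted p under 0.05 in ΔC and 3 in wild-type cells. Nufip1, an assembly factor gene, differed by 1.39 ± 0.61 in ΔC cells (limma adjusted p = 0.448) and by 2.30 ± 0.61 in wild-type cells (0.0507), where it passed without ΔC poly(I:C) 3 (0.0216) or wild-type poly(I:C) 3 (0.0104) and with the replicate block (0.0142). The next largest differences were that of Nop56 in ΔC cells (0.42 ± 0.21, adjusted p = 0.505) and that of Nop58 in wild-type cells (0.93 ± 0.51, 0.27). Nop58 read 3.22 in wild-type untreated 1, against 5.30 and 5.83 in the other two, and its difference was 0.15 without that array. Without all 4 arrays numbered 3 Nufip1 passed in both genotypes (adjusted p = 0.00555 in ΔC and 0.000325 in wild-type cells). Nhp2, a core protein gene of H/ACA particles, was lower in ΔC cells, by -0.60 ± 0.15 untreated (-0.27 with quantile normalization, adjusted p = 0.124) and -0.55 ± 0.15 with poly(I:C). These calls were lost without ΔC untreated 2 (0.0735) and without any 1 of 5 arrays (0.0585 to 0.109). No probe was named for the 30 mature snoRNAs listed, so the spliced hosts were not set against their own snoRNAs.

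In the interaction 0 genes of any of these lists were called. The largest differences of the ΔC minus the wild-type response were 0.51 ± 1.90 for Snhg18 and 0.47 ± 0.18 for Snhg7 among noncoding hosts (1 unadjusted p under 0.05), and -0.69 ± 0.66 for Taf1d and -0.63 ± 0.72 for Nop58 among coding hosts. Without wild-type untreated 1 the value was -0.0618 for Taf1d and 0.16 for Nop58, and the sign for Snhg18 also turned with 1 array (-0.92 without ΔC poly(I:C) 3). Among decay factors they were -1.50 ± 0.40 for Dcp2 and -1.03 ± 0.36 for the exonuclease gene Xrn1 (4 unadjusted p under 0.05, limma adjusted p = 0.446 and 0.661). Dcp2 passed without wild-type poly(I:C) 3 (-1.86, adjusted p = 0.0146), and both passed without all 4 arrays numbered 3 (-1.61 for Dcp2, 0.0148, and -1.20 for Xrn1, 0.0173). Over all genes 200 and 360 were called lower in these settings, against 2 in the main fit. Atf3 had -1.32 ± 0.64 and Gadd45a -0.75 ± 0.40 among decay targets, and Nufip1 -0.91 ± 0.86 among particle proteins, with -0.25 for Nufip1 without ΔC poly(I:C) 3 and -1.51 without wild-type poly(I:C) 3. Of the calls named in these lists, those on Snhg16 and Atf3 in wild-type cells, on Hspa9 and Dhx34 between untreated genotypes and on Dcp2 and Dhx34 between treated genotypes held with slide as a block, and no other did. With that block 222 of all genes were called higher and 10 lower in wild-type cells, and 84 and 0 in ΔC cells. Between genotypes the counts were 549 and 374 untreated and 622 and 316 with poly(I:C). In the main fit these counts were 809 and 237, 281 and 3, 1686 and 1577, and 1837 and 1396. Median scaling ended the calls on Snhg16 and Snhg17 in ΔC cells, on Eif4a2 in wild-type cells, on Rpl10, Magohb, Smg9 and Nhp2 between untreated genotypes and on Snhg7, Snhg10, Eif4a1 and Nhp2 between treated genotypes. This scaling called 207 of all genes higher in ΔC and 583 in wild-type cells. Between genotypes it called 1264 higher and 696 lower untreated, and 999 and 1179 with poly(I:C).

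**Figure D4:**
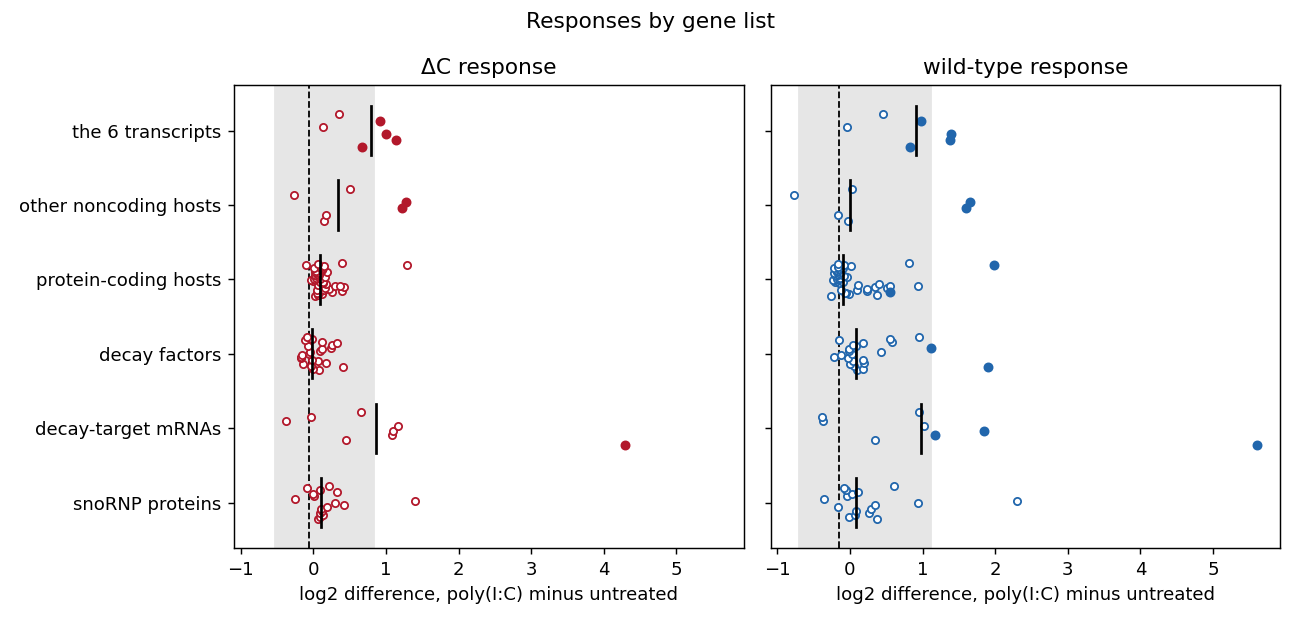
Log2 difference between poly(I:C) and untreated cells (horizontal axis) for each gene of 6 lists, in ΔC cells (left) and wild-type cells (right). Filled points passed the test, short bars are list medians, the dashed line is the median of all genes and the grey band spans their 5th to 95th percentile (-0.52 to 0.83 in ΔC cells, -0.71 to 1.12 in wild-type cells); the 6 hosts have medians of 0.79 and 0.91.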

How the data were processed

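RNA of 12 cultures was labelled with Cy3 and hybridised to 12 arrays, per the labels' protocols. Per the file headers, the deposited scanner files hold spot intensity from Feature Extraction 10.7.3.1, background-subtracted and detrended, with no scaling between arrays, and flags for spots above background. The authors deposited a table of log2 values as well, whose columns share a median of 5.28 (steps not stated; the submitters' processing notes name limma, version not given). Its column for ΔC poly(I:C) 1 correlated at -0.24 with its own array (other columns 0.939 to 0.984), so the table served only as an alternative.

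Here log2 intensity had each array's 75th percentile subtracted. Probes were named through RefSeq accessions (27229 of 55681 with 1 symbol, 28452 with none), and the probe with the highest mean stood for a gene. Genes needed a probe well above background on all 3 arrays of a group. The 5 contrasts were fitted on all 12 arrays with limma 3.58.1 in R 4.3.3 (8 residual and 2.19 prior degrees of freedom, two-sided, Benjamini-Hochberg over 15441 genes) and tested on simulated data. All 6 members were well above background on all 12 arrays, with intensities of 869.5 to 88684; the number of arrays limits precision. The summed marker level is the log2 of the markers' summed linear levels. Same-numbered arrays deviated together (r of 0.115 to 0.651 across genes), and the numbers mark 3 independent experiments per the design text. The main fit was unpaired, with no term for these numbers. They were taken as pairs only in the differences within numbered pairs and in the replicate block.

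Members and lists were chosen with earlier results of these data known. Named were all members, Ppp1r15a, the 5 genes most like the members and, for each list in each comparison, the 2 largest called rises and falls, or the 2 largest changes where 0 were called. A result for 1 gene of the decay list that the naming rule selects is not reported here.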

Additional observations from a re-analysis of the deposited data

How the results depend on the processing

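The number of hosts called was recomputed under 27 alternatives for each comparison, except that the fit with only the groups compared does not exist for the interaction. In the wild-type response (4 called), 2 were called with only the groups compared (Snhg1 and Snhg12) and 0 with slide as a block or with the authors' table. Leaving out 1 array gave 3 to 5. Over all genes 444, 222 and 344 were called higher in the settings named, against 809 in the main fit. With 1 array left out that count ran from 372 to 1193. In the ΔC response (4 called), 0 were called with the replicate block, median scaling, slide or scan day as a block, the authors' table and that table without its mismatched column. Over all genes these settings called 309, 207, 84, 144, 0 and 156 higher in the same order, against 281 in the main fit. In this response 1 host was called with no filter and with only the groups compared, and 2 with normexp and with adjustment over all probes. All genes called higher there numbered 271, 180, 216 and 268. Leaving out 1 array gave 0 to 4, with 0 without ΔC poly(I:C) 1 or 2, ΔC untreated 1 or 2, wild-type poly(I:C) 2 or wild-type untreated 1, and 1 without wild-type poly(I:C) 1. Between treated genotypes (0 called), Snhg12 was the 1 called with only the groups compared and with trend and robust, Snhg5 and Snhg12 were the 2 called without all 4 arrays numbered 3, and leaving out 1 array gave 0 to 2. All genes called lower there numbered 1087, 1614 and 2610, against 1396 in the main fit, and 696 to 1541 with 1 array left out. The replicate block changed no other count of hosts called. Median scaling moved the median of all genes in the ΔC response to -0.19, against -0.05, and raised the share of rises among the wild-type calls to 97.7%, against 77.3%. That share was 64.5% with median scaling, against 51.7%, between untreated genotypes and 45.9%, against 56.8%, between treated genotypes, where the median of all genes moved to -0.14, against 0.0055.

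Reversed differences were small except for Snhg18 in the interaction (down to -0.9164) and in the authors' table with its mismatched column. In that table the ΔC response was -0.56 for 1110038B12Rik, -0.0787 for Snhg12, -0.68 for Snhg3 and -0.81 for Snhg6. Its difference between treated genotypes was 0.11 for Eif4a1, -0.69 for Snhg3 and -0.58 for Snhg7, and its interaction -0.68 for Snhg3, -0.8927 for Snhg7 and -1.2969 for Snhg18.

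Outside the authors' table with its mismatched column, all reversals were in differences that had not passed. Over the 12 settings that leave out 1 array, the difference between treated genotypes ran from -0.32 to 0.0085 for Snhg1 and from -0.0671 to 0.17 for Snhg3. Between untreated genotypes it ran from -0.0918 to 0.27 for Snhg1, from -0.0745 to 0.24 for Snhg6 and from -0.37 to 0.0104 for Snhg12. The interaction ran from -0.29 to 0.0615 for Snhg5, from -0.30 to 0.0099 for Snhg6, from -0.9164 to 1.8759 for Snhg18 (-0.0149 with normexp) and from -1.1497 to 0.1551 for Nop58, and the wild-type response of Snhg3 from -0.13 to 0.0627. That response was also 0.0084 without all 4 arrays numbered 3, 0.0292 with median scaling, 0.0024 with quantile normalization, 0.0065 with slide as a block and 0.0021 in the authors' table with or without its mismatched column. With median scaling Snhg3 also turned in the ΔC response (-0.0078), between treated genotypes (-0.0893, and -0.0128 without all 4 arrays numbered 3) and in the interaction (-0.037). 1110038B12Rik turned between untreated genotypes with quantile normalization (0.0797), normexp (0.13) and the authors' table with or without its mismatched column (0.0793). Snhg6 turned between treated genotypes with quantile normalization (0.0674), normexp (0.142) and the authors' table without its mismatched column (0.035). The causes of these changes were not tested.

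The number of arrays, 3 a group, limits the precision of each difference. Each host was read by 1 probe of unknown position, so isoforms were not told apart. The normexp alternative used the median spot signal.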
